A study of Homo sapiens with 50 samples.

Results

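The probes described here are those of the array whose accession is a RefSeq noncoding transcript (NR_ accessions), apart from small nucleolar RNAs and their host genes. A probe was a member if its spots were well above background on at least 38 of the 50 arrays, so the members were chosen by detection over all groups together and by no comparison between groups. This left 911 probes for 773 gene names, out of 2096 noncoding probes for 1752 names and out of 34127 probes that are not controls. Of the noncoding probes 43.5% were members, against 58.9% of all probes that passed the same background criterion. Detection on all 50 arrays was seen for 728 members. At the edge of the rule, the 8 members detected on exactly 38 arrays had mean levels of −1.77 to −1.40, and the 8 probes left out at 37 arrays had mean levels of −1.57 to −1.02. All levels are log2 intensities relative to the median probe of the same array.

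RNA was measured in H1299, a line from a human lung carcinoma of the non-small cell type, and in H1299shRAD9, made from it with a pSUPER.retro.puro retroviral vector that expresses a short hairpin RNA against RAD9, a subunit of a checkpoint clamp of the DNA damage response. The 10 groups held 5 arrays each, 1 sample per array. In each line there were sham-irradiated controls (CTL, 0 Gy), directly irradiated cells and bystander cells, which grew in the same dish as irradiated cells but were not hit. The dishes received 1 Gy of 4He ions (125 keV per µm) and all RNA was taken at 4 h. The study sorted its dishes by the micronuclei of the bystander cells. Bystander positive (BP) and bystander negative (BN) cells were each accompanied by the directly irradiated cells of the corresponding dishes (DBP and DBN). RAD9 mRNA (RAD9A) was 3.65 ± 0.188 (SD, n = 5) in unirradiated H1299shRAD9 cells and 4.01 ± 0.131 (SD, n = 5) in H1299 cells, a difference of −0.36 (exact permutation test, 2-sided, p = 0.0159, where 0.00794 is the smallest value possible). In the irradiated conditions it was −0.34 (DBP), −0.125 (BP), 0.056 (DBN) and −0.111 (BN). H1299 served as the parental line without the vector, and H1299shRAD9 was selected as stable clones whose identity the sample labels do not give, so the hairpin, the vector and the clone cannot be told apart. The keratins KRT8 and KRT18 and vimentin (VIM), which such carcinoma lines express, were above background on all 50 arrays, and EPCAM on 5. Of lung markers, SCGB1A1 was so on 50, SFTPC on 48 and NKX2-1 on 25, while SFTPB was so on 0 at one probe and 3 at another. NKX2-1 had CTL means of −3.56 in H1299shRAD9 and −0.95 in H1299. Of markers of other cell types, CDH5 of endothelium was above background on 50 arrays, CD3E of T cells on 38 and PTPRC of blood cells on 50 at 2 of its 5 probes, while its other probes, PECAM1, COL1A1 and COL3A1 were so on 8 or fewer. Their part in the results was not tested. Array median intensities ran from 68.4 to 343.57, and 88.04% to 100% of the members were above background on an array. The 2 CTL groups shared no slide and no scan day, so line and scan day cannot be told apart there. On the 2 slides that held arrays of both lines, 113 of 135 (83.7%) and 99 of 134 (73.9%) members called in CTL below kept their sign. Of all called features 84.0% and 77.1% did so. Each slide held a single H1299shRAD9 array, from an irradiated dish (DBN replicate 5 and BP replicate 1). The slide with DBN replicate 5 also held H1299 CTL replicate 5, an array that helped to make the calls. The other slide held no CTL array. Line was mixed with condition on both slides, and the part of scan day in the CTL calls was not tested. The study describes the 5 samples of each group as independent and assessed its dishes one by one. Nothing in the labels says that replicates came from separate cultures, so p-values measure the spread between these samples.

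Noncoding RNAs are made from genes that encode no protein, or from genes that also make coding transcripts. Some are structural parts of the machines that splice, translate or process RNA. Long noncoding RNAs can act on the chromatin of nearby genes, hold proteins together, or bind other RNAs, and antisense RNAs are transcribed from the strand opposite a coding gene. Pseudogenes are copies of coding genes, whose transcripts can be so like the parent mRNA that a short probe may bind both. Most members fell in the loosely known part of this catalogue. By the names on the array, 362 probes were uncharacterized, 346 were pseudogenes, 41 were antisense RNAs, 40 were long intergenic RNAs, 17 were noncoding transcripts of coding genes, 10 were small structural RNAs, 7 were microRNA genes or hosts, 6 were ribosomal RNAs and 82 had other names. Current RefSeq symbols, found for 802 of the 911 accessions, have since given 270 of the uncharacterized probes a name of another kind, 147 of them as antisense or divergent transcripts and 94 as LINC genes. Current symbols are used below, with the array's name at first mention. By these, 6 members are now small nucleolar RNAs or their host genes. The median of the members' mean levels was 1.49, lower than the 2.90 of all probes detected on as many arrays.

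Each probe is 60 bases long, and the sequences below show some of the members that differed between lines or changed after irradiation, with the several probes of a gene where these parted. They are given as in the array annotation, 5′ to 3′ on the transcript's strand. Capitals mark the polyadenylation hexamer AATAAA, searched on the printed strand only. It was present in 104 members, 11.4%, against 7.7% of all probes on the array. Positions are those of the annotation on hg19, inside the transcript that it names.

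FOXN3-AS1 (chr14:89885621-89885680, plus strand), the member with the largest difference between lines: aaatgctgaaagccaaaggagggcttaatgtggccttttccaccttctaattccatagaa

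LINC00937, first of 2 overlapping probes (chr12:8509587-8509646, minus strand): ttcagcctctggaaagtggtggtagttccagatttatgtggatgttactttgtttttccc

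LINC00937, second overlapping probe (chr12:8509581-8509640, minus strand): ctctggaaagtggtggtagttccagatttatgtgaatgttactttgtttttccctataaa

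LINC00937, probe 33340 bases upstream of the first (chr12:8542927-8542986, minus strand): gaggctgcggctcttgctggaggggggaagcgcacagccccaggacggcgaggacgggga

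ERCC6L2-AS1, probe with a difference between lines (chr9:98568486-98568545, minus strand): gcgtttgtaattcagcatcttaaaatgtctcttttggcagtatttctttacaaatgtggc

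ERCC6L2-AS1, brighter probe without one (chr9:98637477-98637536, minus strand): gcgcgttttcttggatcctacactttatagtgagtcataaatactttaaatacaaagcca

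FBLL1, dimmer probe (chr5:167957563-167957622, plus strand): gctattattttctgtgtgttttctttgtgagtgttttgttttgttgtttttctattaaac

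FBLL1, brighter probe (chr5:167957395-167957454, plus strand): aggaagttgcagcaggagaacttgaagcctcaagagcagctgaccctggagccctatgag

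AURKAP1, lower after direct irradiation (chr1:220439658-220439717, minus strand): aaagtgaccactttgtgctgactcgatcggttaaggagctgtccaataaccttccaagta

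JPX, higher in irradiated groups of H1299shRAD9 (chrX:73289703-73289762, plus strand): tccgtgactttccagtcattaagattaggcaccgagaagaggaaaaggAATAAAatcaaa

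FRG1HP, brightest of 3 probes, higher in the same groups (chr9:68726645-68726704, plus strand): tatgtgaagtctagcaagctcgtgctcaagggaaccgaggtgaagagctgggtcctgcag

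HSP90AB2P, brighter of 2 probes, higher in the same groups (chr4:13339014-13339073, plus strand): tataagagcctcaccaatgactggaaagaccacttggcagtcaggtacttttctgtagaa

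RN7SK, a structural RNA called higher over the 5 conditions (chr6:52860659-52860718, plus strand): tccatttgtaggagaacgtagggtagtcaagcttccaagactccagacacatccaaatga

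The first comparison asked which noncoding RNAs differed between the unirradiated lines. Of the 911 members, 905 passed the background criterion used for all probes and 658, for 586 gene names, also varied by 1.3-fold in 20% of the arrays and were tested. In limma's moderated test a member was called if p was under 0.005 and its Benjamini-Hochberg adjusted value, over all 12206 features, under 10%. In CTL, 135 members (131 gene names) were called, 75 higher and 60 lower in H1299shRAD9. That is 20.5% of the members tested, where 15.5% of all features tested were called, 7.82% as higher and 7.68% as lower. The median difference of the members was 0.17, and that of all features 0.10. The 5 values of one line did not overlap those of the other for 99 of the 135, or 73.3%, against 77.6% of all called features. The count was 66 with slide as a random block, 70 with scan day as a random block and 63 without replicate 3. No slide or scan day held CTL arrays of both lines, so these blocks cannot take a slide or day effect out of the difference. The split was 32 higher and 65 lower with normexp background correction and 40 higher and 51 lower in the authors' value table. Counts over all features under these alternatives are not given, so such shifts cannot be read as particular to the members. The arrays are of bulk RNA, in which fewer cells with an RNA and less RNA per cell cannot be told apart.

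**Figure D1:**
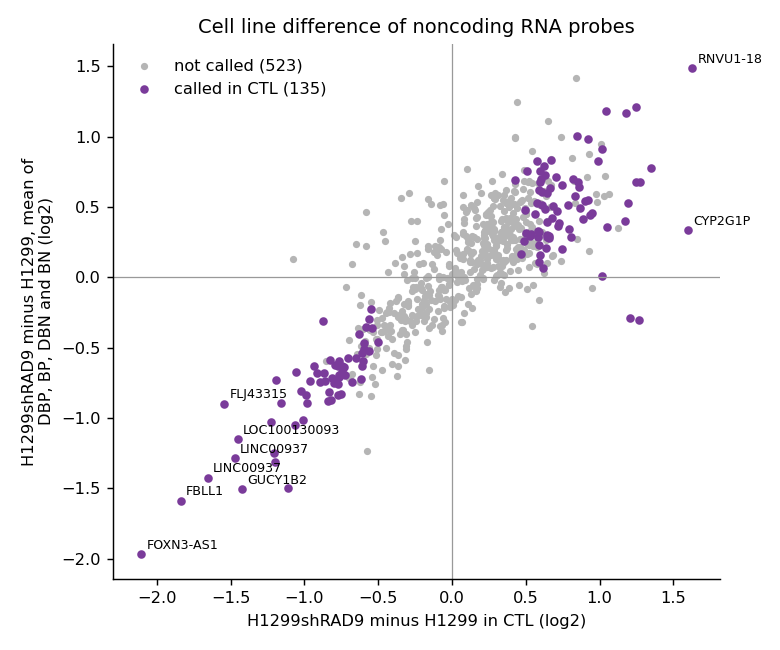
Differences between cell lines (H1299shRAD9 minus H1299, log2) of the 658 members tested, in CTL on the horizontal axis and as the mean of the 4 irradiated conditions on the vertical axis. The 135 members called in CTL are purple, and members differing by over 1.4 in CTL carry their name. Of the 135, 124 had the same sign in each of the 5 conditions.

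The largest difference was that of FOXN3-AS1 (LOC400236 on the array), an antisense RNA of the gene for the forkhead repressor FOXN3. Its levels were 0.72, 0.61, 0.46, 0.46 and 0.16 in the H1299shRAD9 CTL samples and 2.27, 2.29, 2.70, 2.85 and 2.83 in the H1299 CTL samples. Every H1299 sample lay above every H1299shRAD9 sample by a wide gap. The difference was −2.11 ± 0.17 (SE), or 4.31-fold, with an adjusted p of 1.31e-05. FOXN3 itself, a coding gene outside the members that was looked up after the values had been seen, was at 1.16 to 1.84 in H1299shRAD9 and 2.02 to 3.27 in H1299, without overlap, and differed by −1.07 ± 0.23 (adjusted p = 0.0103).

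LINC00937 (LOC389634), a long intergenic RNA, was lower by both of its overlapping probes. The first read −0.42, −0.69, −0.88, −0.93 and −0.82 in H1299shRAD9 and 0.44, 0.60, 0.76, 0.84 and 0.98 in H1299. The lines were apart in every sample, by −1.47 ± 0.15 (adjusted p = 0.000109) at this probe and by −1.65 ± 0.21 (adjusted p = 0.000451) at the second. The probe 33340 bases away, which is the brightest of the 3 and did not pass the criterion on variation, was at 1.31 to 1.52 in H1299shRAD9 and 1.59 to 1.94 in H1299 and differed by −0.34. The probes of ERCC6L2-AS1 (LINC00476), which runs opposite the helicase gene ERCC6L2, parted in the same way. The dimmer one read −1.08, −0.79, −0.84, −0.74 and −1.06 in H1299shRAD9 and 0.29, −0.07, 0.62, 0.14 and 0.05 in H1299, with no overlap and a difference of −1.11 ± 0.16 (adjusted p = 0.00119). The brighter one, 68991 bases away, was 2.87 to 3.94 in H1299shRAD9 and 3.60 to 3.95 in H1299, and its difference of −0.33 ± 0.21 was not called (adjusted p = 0.257).

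FBLL1, a fibrillarin-like gene, was measured by probes 168 bases apart that did not move together. The dimmer probe read −0.26, 0.29, 0.87, 0.81 and 0.09 in H1299shRAD9 and 3.31, 3.18, 1.38, 1.65 and 1.48 in H1299. The groups were apart, with the first 2 H1299 samples far above the other 3, and the difference was −1.84 ± 0.39 (adjusted p = 0.0102). At the brighter probe the difference was 0.42 ± 0.23, in the other direction and not called (adjusted p = 0.192). Over the 5 conditions both were called, at −1.64 and 0.50. Over all members, 59 gene names had several tested probes, and in 44 of these all probes had the same sign. At least 1 probe was called in 22 names, all probes in 4, where 15.5% of all features were called. No like count is given for genes outside the members, so whether this is particular to noncoding probes cannot be said.

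Other members lower in H1299shRAD9 included the pseudogene GUCY1B2, of a guanylate cyclase subunit. It was at −1.98 to −1.04 in H1299shRAD9 and at −0.66 to 0.24 in H1299, by −1.42 ± 0.23 (adjusted p = 0.00251). GUCY1B2 was above background on 3 of the 5 H1299shRAD9 arrays and on all 5 H1299 arrays. The uncharacterized LOC100130093 differed by −1.45 ± 0.25 (adjusted p = 0.00352). KDM7A-DT (LOC100134229), transcribed divergently from the gene of the histone demethylase KDM7A, differed by −1.20 ± 0.27 (adjusted p = 0.0126). Its highest H1299shRAD9 level, −0.32, lay below the H1299 range of 0.04 to 0.97. It was above background on 3 of the 5 H1299shRAD9 arrays. KDM7A mRNA (JHDM1D) was not called, with a difference of −0.68 ± 0.45 (adjusted p = 0.274). ST7-AS1, antisense to ST7, was 0.02 to 0.60 in H1299shRAD9 and 1.16 to 1.78 in H1299, a difference of −1.16 ± 0.16 (adjusted p = 0.00105), while ST7 differed by −0.05 ± 0.14 and was not called. ZNF566-AS1 (LOC728752) differed by −1.06 ± 0.19 (adjusted p = 0.00476) and its zinc finger partner ZNF566 by −0.23 ± 0.21 (adjusted p = 0.427). One FAM66A probe differed by −1.06 ± 0.14 (adjusted p = 0.000477) and the brighter one by −0.07 ± 0.22 (adjusted p = 0.827).

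Among the members higher in H1299shRAD9, the largest difference was that of a U1 small nuclear RNA probe named RNVU1-18 (RNU1-5). The U1 family recognizes the 5′ splice site, and whether this probe also binds other U1 RNAs was not tested. The probe read 6.18, 6.49, 7.22, 6.43 and 6.50 in H1299shRAD9 and 5.08, 5.69, 3.98, 4.89 and 5.05 in H1299. All H1299shRAD9 samples were higher, by 1.63 ± 0.28 (adjusted p = 0.00352). CYP2G1P, a cytochrome P450 pseudogene, read 0.26, 0.70, 0.11, 0.07 and −0.12 in H1299shRAD9 and −1.41, −1.21, −1.02 and −1.95 in the 4 H1299 samples that could be measured. The difference was 1.60 ± 0.22 (adjusted p = 0.00128). The 5.8S ribosomal RNA RNA5-8SN5 (RN5-8S1) differed by 1.35 ± 0.24 (adjusted p = 0.00459) and ZNF503-AS2, antisense to a zinc finger gene, by 1.18 ± 0.24 (adjusted p = 0.00846).

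MIR124-2HG (LOC100130155), a host transcript of the neuronal microRNA miR-124, read −0.93, −0.61, −0.31, 0.91 and −0.81 in H1299shRAD9 and −1.85 to −1.28 in H1299. One H1299shRAD9 sample stood well above the rest, and the difference was 1.17 ± 0.30 (adjusted p = 0.019). GHRLOS, from the strand opposite the ghrelin gene, differed by 1.04 ± 0.26 (adjusted p = 0.017), a noncoding transcript of the mitochondrial carrier gene SLC25A51 (MCART1) by 0.99 ± 0.21 (adjusted p = 0.00907), the imprinted HYMAI by 0.95 ± 0.25 (adjusted p = 0.023) and the ribosomal protein pseudogene RPL23AP64 by 0.92 ± 0.19 (adjusted p = 0.00906). PLAGL1, the coding gene that HYMAI overlaps, was not called (−0.13 ± 0.18, adjusted p = 0.605), nor was RPL23A, the parent of RPL23AP64 (0.39 ± 0.17, adjusted p = 0.113). The profilin pseudogene PFN1P2 differed by 1.24 ± 0.19 at one probe (adjusted p = 0.0019) and by 0.27 to 0.35 at its 3 other probes, none of which was called.

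**Figure D2:**
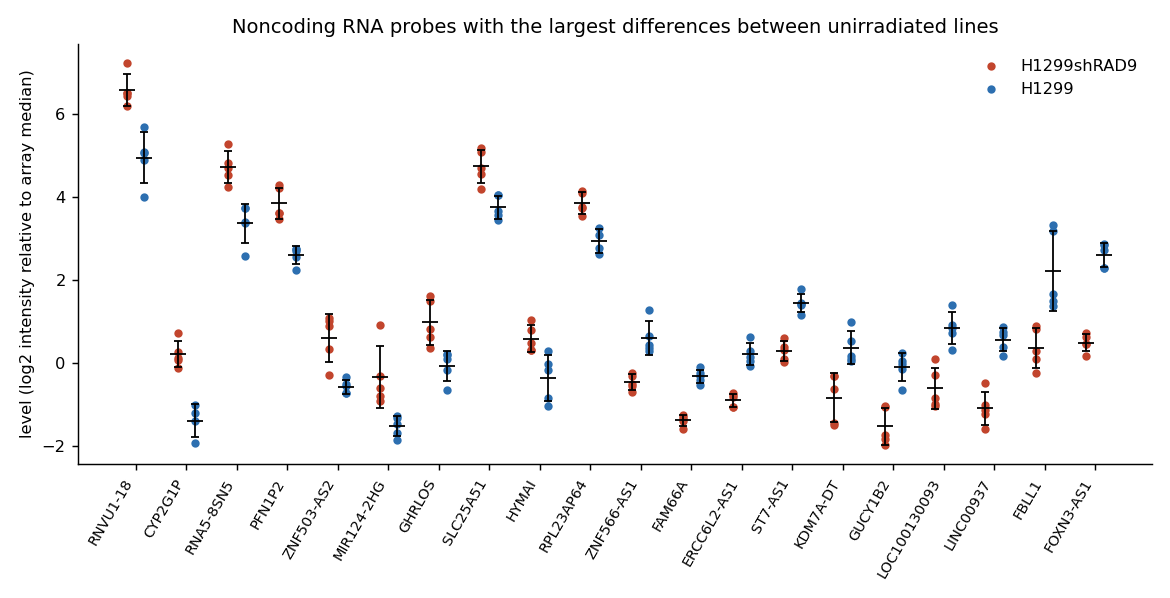
Levels (log2 intensity relative to the array median) in the CTL samples of each line for the 20 called members named above that did not overlap between groups, 10 in each direction. Points are samples, bars the mean ± SD of up to 5 samples, and for genes with several probes the called probe with the largest difference is drawn. In each gene the H1299shRAD9 samples lie on one side of the H1299 samples.

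Grouped by the names on the array, the called members in CTL were 22 higher and 12 lower of 233 pseudogenes tested (14.6%, beside the 15.5% of all features), 38 higher and 36 lower of 269 uncharacterized probes (27.5%), 2 higher and 3 lower of 27 antisense RNAs (18.5%) and 1 higher and 4 lower of 27 long intergenic RNAs (18.5%). In this grouping FOXN3-AS1 and ZNF566-AS1 stand among the uncharacterized probes and ERCC6L2-AS1 among the long intergenic RNAs. Noncoding transcripts of coding genes had 4 higher and 0 lower of 15 (26.7%), and none of the 7 microRNA genes or hosts was called. A coding partner could be read from the name on the array for 37 tested members, such as an antisense RNA and the gene it opposes. Of these members 6 were called in CTL, and the partner was called for 0 of the 6, where 15.5% of all features were called. Antisense RNAs with another name on the array are not among the 37. FOXN3-AS1 and FOXN3, which were lower together, are thus not counted here.

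A list of 54 well-known noncoding RNAs had 39 on the array, 27 among the members and 24 tested. In CTL 1 was called higher and 2 were called lower, where 15.5% of all features were called, with a median difference of 0.08 against 0.10 for all features. DLEU1, from a region deleted in lymphocytic leukemia, was 4.50 to 4.82 in H1299shRAD9 and 3.76 to 4.24 in H1299 (0.58 ± 0.14, adjusted p = 0.0158). CASC2, a transcript described as a tumor suppressor, was −1.99 to −1.15 in H1299shRAD9 and −0.79 to −0.12 in H1299 (−0.98 ± 0.20, adjusted p = 0.00781). LINC00467 was lower by both probes, −0.77 ± 0.19 (adjusted p = 0.0187) and −0.61 ± 0.16 (adjusted p = 0.0236), although 1 H1299 sample lay among the H1299shRAD9 samples.

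Many of the best known long noncoding RNAs were not called between the unirradiated lines. MALAT1, of nuclear speckles, differed by −0.38 ± 0.20 (adjusted p = 0.175), TUG1 by 0.08 ± 0.15 (adjusted p = 0.708) and the imprinted MEG3 by 0.44 ± 0.19 (adjusted p = 0.107). MIR22HG, host of miR-22, spread from 5.78 to 7.03 in H1299shRAD9 and from 5.27 to 6.71 in H1299 (0.68 ± 0.29, adjusted p = 0.102). TERC, the RNA template of telomerase, did not vary enough to be tested, and was 4.52 to 4.83 in H1299shRAD9 and 4.31 to 4.80 in H1299. Of 38 genes that make, cut or hold noncoding RNAs, 17 were tested and 1 was called in CTL, beside 15.5% of all features. It was Argonaute 1 (EIF2C1), which carries microRNAs and was higher by 0.61 ± 0.15 (adjusted p = 0.0188).

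The second comparison asked whether these differences held with irradiated samples included. Apart from DBN replicate 5 and BP replicate 1, no H1299shRAD9 array was scanned on the same day as an H1299 array. Line and scan day can therefore hardly be told apart in the irradiated conditions either, and the part of scan day was not tested. Averaged over the 5 conditions, 166 members were called, 79 higher and 87 lower in H1299shRAD9, or 25.2%, where 25.3% of all features were called, 14.4% as higher and 10.8% as lower. The split moved with the scaling, to 40 higher and 116 lower at the 75th percentile and 42 and 100 with quantile normalization. It was 32 and 91 in the authors' value table and 92 and 54 with normexp. The split of all features under these settings is not given, so this shift cannot be read as particular to the members. The 135 members called in CTL had the same sign in all 5 conditions in 124 cases (91.9%), against 89.8% of called features in general. For 10 members, 1.52%, the lines did not overlap in any of the 5 conditions, where 1.598% of all features behaved so. One of the 10, the mitochondrial ribosomal protein pseudogene MRPL42P5, was higher in H1299shRAD9, by 0.28 to 0.59 depending on the condition. The other 9 were lower. They were FOXN3-AS1, LINC00937, ERCC6L2-AS1, ZNF566-AS1, FAM66A, CASC2, the HOXD antisense transcript HAGLR (LOC401022), PSMG3-AS1 (KIAA1908) and A2M-AS1 (LOC144571). For LINC00937 this was the first overlapping probe, and for ERCC6L2-AS1 and FAM66A the dimmer one. The brighter probes of ERCC6L2-AS1 and FAM66A overlapped in all 5 conditions, with ERCC6L2-AS1 at 0.02 in BP. MRPL42P5, HAGLR, PSMG3-AS1 and A2M-AS1 are named because they are among the 10, after their values were seen.

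The difference between lines in FOXN3-AS1 ran from −2.17 in BP to −1.77 in DBN. Over the 5 conditions it was 3.99-fold lower in H1299shRAD9 (SE 0.13 on the log2 scale, adjusted p = 3.22e-17), and that of FOXN3 was −0.93 ± 0.15 (adjusted p = 3.02e-06). The closest approach of the groups for FOXN3-AS1 was in DBN, where 1 H1299 sample read 1.21 and the highest H1299shRAD9 sample 0.76. The dimmer ERCC6L2-AS1 probe differed by −1.42 ± 0.20 over the conditions (adjusted p = 2.6e-07), a mean that includes DBP, where it was above background on 2 of the 5 H1299shRAD9 arrays. CASC2 was called lower over the conditions (adjusted p = 2.03e-05), with values of −0.69 (BP), −1.04 (DBN) and −0.74 (BN). In DBP the CASC2 probe was not well above background on any H1299shRAD9 array, so no size is given there or for the mean over the conditions. Of the members called higher over the 5 conditions, RNVU1-18 differed by 1.51 ± 0.39 (adjusted p = 0.00264), GHRLOS by 1.15 ± 0.21 (adjusted p = 3.99e-05), ZNF503-AS2 by 1.17 ± 0.18 (adjusted p = 2.72e-06) and AFMID, a noncoding transcript of a gene for an enzyme of tryptophan breakdown, by 0.97 ± 0.20 (adjusted p = 0.000252). ZNF503 was called in the same direction as its antisense RNA (0.46 ± 0.15, adjusted p = 0.0172).

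**Figure D3:**
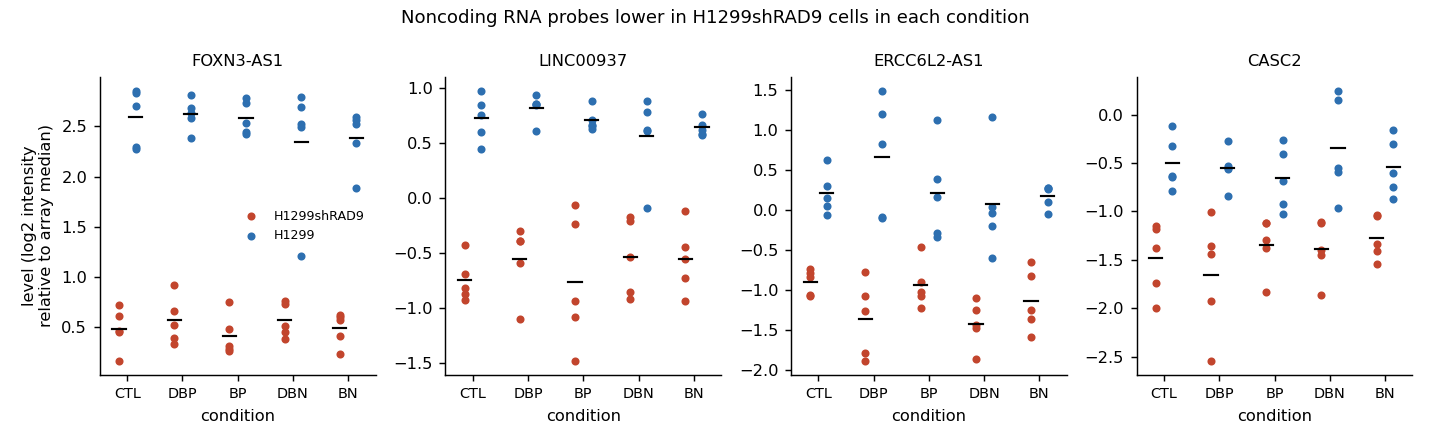
Levels (log2 intensity relative to the array median) of FOXN3-AS1, LINC00937 (first overlapping probe), ERCC6L2-AS1 (dimmer probe) and CASC2 in the 5 conditions of each line, with 5 samples (points) and their mean (bar) in each group. At these probes the highest H1299shRAD9 sample is below the lowest H1299 sample in every condition, and CASC2 in DBP of H1299shRAD9 is not well above background.

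Not every difference of the unirradiated lines was shared. The difference in CYP2G1P was 1.60 in CTL and between 0.48 and 0.86 in DBP, BP and BN, but −0.70 in DBN, where H1299 replicate 2 read 3.20 and the other H1299 samples −1.34 to −0.55. HYMAI was 0.95 higher in CTL and 0.14 in DBP, and MIR124-2HG 1.17 higher in CTL and 0.14 in BP. Both were not called over the 5 conditions. Among the known noncoding RNAs, 5 were called higher and 3 lower of 24 tested over the conditions, where 14.4% of all features were called higher and 10.8% lower. EPB41L4A-AS1 was higher by 0.39 ± 0.13 (adjusted p = 0.019) and HCG18 by 0.52 ± 0.17 (adjusted p = 0.0159). OIP5-AS1 did not pass the criterion on variation and is not among the 5. In the fit without that criterion it was higher by 0.36 ± 0.11 (adjusted p = 0.00806). DLX6-AS1 joined the lower ones, with −0.61 ± 0.15 (adjusted p = 0.00211). Of the 12 called members with a coding partner by their name on the array, the partner was called in the same direction for 5 and in the opposite direction for 0. Of all features 25.3% were called.

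Of the 15 tested probes for RNAs of the splicing, translation and processing machines, 2 were called higher in H1299shRAD9 in CTL and 7 over the 5 conditions. None was called lower. Of all features 15.5% were called in CTL (7.82% as higher) and 25.3% over the 5 conditions (14.4% as higher), so the CTL count is not set apart from all features. There were 16 probes for small structural and ribosomal RNAs, most of which carry no poly(A) tail, and 15 were tested. In CTL all 15 differences were above 0, with a median of 0.54 against 0.10 for all features, and 2 were called. Those of RMRP and RPPH1 were 0.07 each and turned to −0.0543 and −0.0649 with normexp. Over the 5 conditions 14 of 15 were above 0, with a median of 0.83 against 0.17 for all features, and 7 were called. Of those 7, 2 are probes of RNU105A, which is now the small nucleolar RNA SNORA73B. RN7SK, which holds the elongation factor P-TEFb inactive, was higher by 0.83 ± 0.23 (adjusted p = 0.00539). RN7SL1, the scaffold of the signal recognition particle, was higher by 0.66 ± 0.20 (adjusted p = 0.0105), the U2 RNA RNU2-2 by 0.96 ± 0.27 (adjusted p = 0.00476) and one 28S ribosomal RNA probe (RN28S1) by 0.95 ± 0.26 (adjusted p = 0.00421). RMRP (0.41 ± 0.20, adjusted p = 0.0958) and RPPH1 (0.12 ± 0.19, adjusted p = 0.649), RNAs of the RNase MRP and P enzymes, were not called, nor was U12 (RNU12, −0.01 ± 0.20).

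The mean of the 15 probes on an array ran from 6.07 to 6.98 in H1299shRAD9 CTL and from 5.27 to 6.39 in H1299 CTL, so the ranges overlapped. H1299 DBN replicate 2 read 2.66 and H1299 BP replicate 2 read 4.29, below the 5.0 to 6.98 of the other 48 arrays. These 2 arrays also correlated least with the other arrays of their line, at a median r over features of 0.933 and 0.948, against 0.954 to 0.988 for the others. Without them 8 structural probes were called. A single call was left of 13 tested after scaling to the 75th percentile, 1 of 13 after quantile normalization and 1 of 11 from the authors' table, and with scan day as a block 2. Labeling started from oligo-dT priming, which reaches RNAs without a tail only in part, and the part of labeling in this difference was not tested. Of the 28S probes, 2 were saturated, on 15 and 47 of the 50 arrays.

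**Figure D4:**
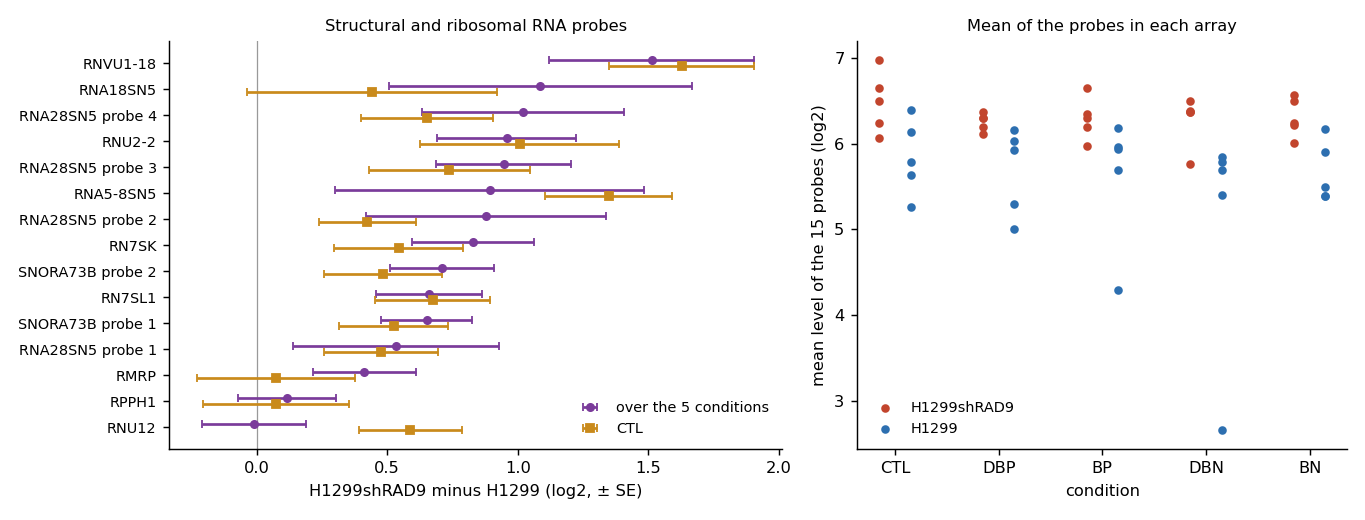
Left, difference between lines (H1299shRAD9 minus H1299, log2, with bars of ± 1 SE) for the 15 tested probes of structural and ribosomal RNAs, in CTL (squares) and over the 5 conditions (circles). Right, mean level of these probes on each array by condition, with H1299 DBN replicate 2 lowest at 2.66.

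The next comparisons asked what direct and bystander irradiation changed, each irradiated group against the CTL of its line. Replicate numbers were a block, and calls needed p under 0.006 and the same adjusted value. All 4 comparisons of a line share its 5 CTL arrays. In H1299shRAD9, 6 members were called in DBP (2 rose and 4 fell), 15 in BP (10 rose and 5 fell) and 21 in DBN (9 rose and 12 fell). These are 0.912%, 2.28% and 3.19% of the members tested, beside 1.79%, 2.34% and 4.85% of all features. Higher calls alone made up 1.02%, 2.17% and 3.43% of all features, and lower calls 0.77%, 0.172% and 1.42%. In BN 0 members were called, where 0.0492% of features were (0.041% higher and 0.00819% lower), and 83 members (12.6%, beside 14.3% of all features) had an unadjusted p under 0.05 and 0 were called by the random-variance test. The calls covered 31 probes of 30 gene names, of which 22 were called in 1 comparison, 7 in 2 and 2 in 3. Of the 233 tested probes with a pseudogene's name or type, 3 were called in DBP (1.29%), 9 in BP (3.86%) and 10 in DBN (4.29%). HSP90AB2P, described below, was filed under other names and is not among these.

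AURKAP1 (AURKAPS1), a pseudogene of the mitotic kinase gene AURKA, fell after direct irradiation. In H1299shRAD9 it read 5.47, 5.38, 5.21, 5.47 and 5.32 in CTL, 4.45, 4.63, 4.62, 4.54 and 4.65 in DBP, and 4.37, 4.53, 4.89, 4.58 and 4.40 in DBN. Both directly irradiated groups lay below CTL without overlap. The bystander samples, at 5.13 to 5.45 in BP and 5.30 to 5.56 in BN, lay among or close to the CTL values. The change was −0.79 ± 0.10 in DBP (adjusted p = 0.0461) and −0.82 ± 0.13 in DBN (adjusted p = 0.0404), against −0.07 in BP and 0.04 in BN. AURKA, paired with it after the values had been seen, fell by 0.77 on the log2 scale in DBP and by 0.91 in DBN, both called, and changed by 0.03 in BP. In H1299 cells AURKAP1 changed by −0.94 in DBP (adjusted p = 0.141) and by −1.18 in DBN (adjusted p = 0.645), neither called, with 4.26 to 4.35 in DBP and 4.94 to 5.40 in CTL. AURKA was called there in DBP (−1.18 ± 0.16, adjusted p = 0.0959). Whether the AURKAP1 probe also binds AURKA mRNA was not tested.

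SIGLEC16, related to sialic acid receptors and chosen after its values were seen, had a like pattern at one of its probes, with −0.53 in DBP and −0.53 in DBN, both called, beside −0.12 in BP and −0.07 in BN. BRWD1-IT2, an intronic transcript of the bromodomain gene BRWD1, fell in DBP by 0.72 on the log2 scale (SE 0.13, adjusted p = 0.0825). Its changes of −0.64 in BP and −0.57 in BN were not called (adjusted p = 0.239 and 0.246), although neither group overlapped CTL, and that in DBN was −0.32. BRWD1 rose in DBP, by 0.54 ± 0.12 (adjusted p = 0.0982). Between the CTL groups, H1299shRAD9 differed from H1299 by 0.74 in BRWD1-IT2 and by 0.64 in RPL23AP32, neither called. The ribosomal protein pseudogene RPL23AP32 changed by −0.67 ± 0.14 in DBP (adjusted p = 0.0953), a call that rested on values between −0.30 and 0.33 in CTL and between −1.44 and 0.14 in DBP, which overlapped.

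Several pseudogene transcripts were higher than in the same 5 CTL arrays in both directly irradiated and bystander cells of H1299shRAD9. FRG1HP (LOC100132352), a copy of the FRG1 gene, read 4.18, 3.70, 3.75, 3.82 and 4.18 in CTL, 4.40 to 4.68 in DBP, 4.32 to 4.94 in BP, 4.40 to 4.87 in DBN and 4.13 to 4.87 in BN. The CTL values lay at the low end throughout, with overlap in BN alone. The change was 0.58 ± 0.11 in DBP (adjusted p = 0.0849), 0.63 ± 0.09 in BP (adjusted p = 0.0444), 0.70 ± 0.14 in DBN (adjusted p = 0.0573) and 0.64 in BN (adjusted p = 0.207, not called). The heat shock protein pseudogene HSP90AB2P rose by 0.55 ± 0.11, 0.57 ± 0.10 and 0.70 ± 0.13 in DBP, BP and DBN (adjusted p = 0.0849, 0.0464 and 0.0545) at its brighter probe. At its other probe, 378 bases away, the changes were 0.08, −0.08 and −0.06. A second FRG1HP probe was called in BP (0.48 ± 0.11) and DBN (0.56 ± 0.14), and the third in none. The septin pseudogene SEPTIN7P9 (SEPT7L) rose by 0.63 ± 0.13 in BP (adjusted p = 0.0692) and 0.88 ± 0.18 in DBN (adjusted p = 0.064). The parent genes FRG1, HSP90AB1 and SEPT7, looked up after the values had been seen, were called in none of DBP, BP and DBN, with changes of −0.11 to 0.11. The phosphoglucomutase pseudogene PGM5P2 rose by 0.67 ± 0.13 in BP (adjusted p = 0.0621) and the golgin pseudogene GOLGA8EP (GOLGA8E) by 0.73 ± 0.12 at one probe (adjusted p = 0.0444), while its brighter probe changed by 0.01. Neither was called in the other groups, where PGM5P2 changed by 0.51 in DBP, 0.71 in DBN and 0.74 in BN, and GOLGA8EP at the same probe by 0.46, 0.79 and 0.70. SEPTIN7P9 changed by 0.88 in BN, not called. The shared CTL level of H1299shRAD9 differed from that of H1299 by −0.59 in FRG1HP (brightest probe), −0.68 in PGM5P2, −0.35 in SEPTIN7P9 and −0.29 in GOLGA8EP. In HSP90AB2P (brighter probe) it was 0.11. None of these was called. At the second FRG1HP probe, however, the CTL difference was −0.87 ± 0.22 and was called (adjusted p = 0.0175). The part of the CTL level in the changes was not tested.

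JPX, an RNA of the X inactivation center that activates the silencing RNA of that locus, read −1.06, −1.08, −0.10, −0.56 and −0.16 in CTL and 0.09, −0.10, 0.78, 0.64 and 0.47 in DBN. Every sample rose above its same-numbered control, although the first samples of each group were the lowest, and the change was 0.97 ± 0.12 (adjusted p = 0.0253). In BP it rose by 0.60 ± 0.13 (adjusted p = 0.095), and in BN its change of 0.93 was not called (adjusted p = 0.156). MYH16, a myosin heavy chain gene that makes no working protein in humans, read −0.51, −2.35, −1.19, −1.35 and −0.78 in CTL, and −0.53 to 0.88 in BP, so the groups touched. It rose by 1.22 ± 0.19 in BP (adjusted p = 0.0444) and by 1.01 ± 0.21 in DBN (adjusted p = 0.064), and its changes of 0.82 in DBP and 1.21 in BN were not called. One CTL sample of MYH16 lay far below the rest. Between the CTL groups, H1299shRAD9 differed from H1299 by −0.58 in JPX and −0.65 in MYH16, neither called.

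Of the members that fell, CYP2G1P changed by −0.66 ± 0.14 in BP (adjusted p = 0.0934) and by −0.99 ± 0.12 in DBN (adjusted p = 0.0337), in the 4 pairs with both values. U12 (RNU12), of the minor spliceosome, had a median of 1.44 in CTL and was 0.33 to 1.00 in BP, below every CTL sample. It fell by 0.78 on the log2 scale (SE 0.18, adjusted p = 0.0948). In the other groups U12 was not called, with changes as large, −0.79 in DBP (adjusted p = 0.113), −0.70 in DBN (adjusted p = 0.175) and −0.73 in BN (adjusted p = 0.156). LINC03009 (LOC100133091) fell by 0.68 in BP (SE 0.12, adjusted p = 0.0444) and changed by −0.32 in DBP, −0.26 in DBN and −0.13 in BN, not called. In DBN the antisense RNA POLR1HASP (ZNRD1-AS1) fell by 0.55 (SE 0.12, adjusted p = 0.0691; −0.49 in DBP, not called), ERCC6L2-AS1 by 0.53 at its dimmer probe (SE 0.12, adjusted p = 0.0721) and EOLA1-DT (LOC100131434) by 0.78 at one probe (SE 0.18, adjusted p = 0.0743). LARP7, the protein that protects RN7SK, was 1 of 17 tested machinery genes and was called higher in BP (0.54 ± 0.09, adjusted p = 0.0444) and in DBN (0.65 ± 0.13, adjusted p = 0.0611). RN7SK itself was not called there, with 0.09 in BP and 0.11 in DBN. Between the CTL groups, H1299shRAD9 differed from H1299 by 1.60 in CYP2G1P and 1.02 in EOLA1-DT (same probe), both called. It differed by 0.68 in LINC03009, 0.59 in U12 and −0.09 in POLR1HASP, none called. At the dimmer ERCC6L2-AS1 probe the difference was −1.11, called. The part of the CTL level in the falls was not tested.

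With slide as a fixed block in place of the replicate number, 0 members were called in DBP, BP and DBN. In that fit the change rests only on slides with arrays of both groups. In DBN this was a slide with 1 irradiated and 2 CTL arrays. So few arrays could hardly give a call, and the count over all features in that fit is not given. Leaving out 1 replicate gave 0 to 26 in DBP, 0 to 9 in BP and 1 to 28 in DBN. On the slides that held CTL and irradiated arrays together, 6 of 6 called members in DBP, 15 of 15 in BP and 21 of 21 in DBN moved the same way, among the same arrays that made the calls. Of all called features 100%, 100% and 99.7% did so.

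**Figure D5:**
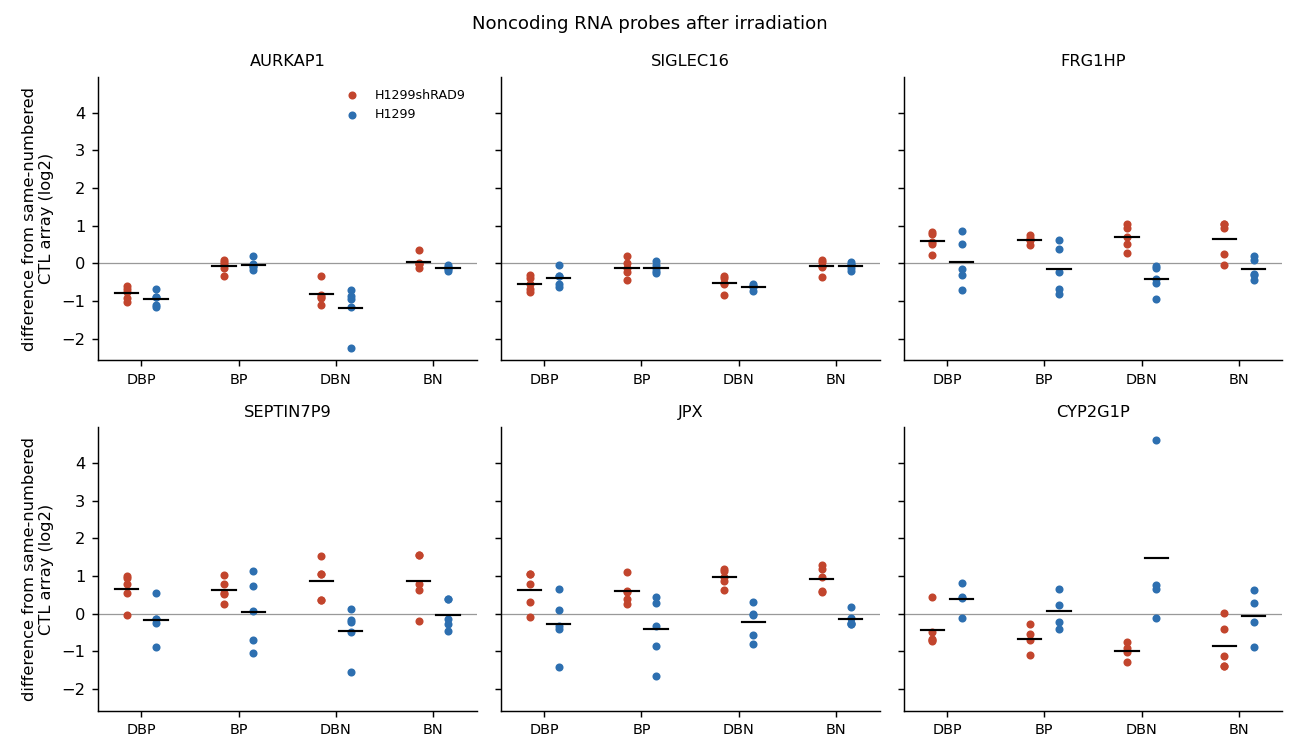
Change from the same-numbered CTL array (log2) for 6 members in the 4 irradiated conditions of each line, with 1 point per pair and a bar at the mean. The means of AURKAP1 and SIGLEC16 are below 0 in DBP and DBN of both lines, while those of FRG1HP, SEPTIN7P9 and JPX are above 0 in every H1299shRAD9 group.

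In H1299, 0 members were called in each of the 4 irradiated groups, where 0.0573% (DBP), 0% (BP), 0.0164% (DBN) and 0% (BN) of all features were. An unadjusted p under 0.05 was found for 40, 42, 22 and 21 members (6.08%, 6.38%, 3.34% and 3.19%, beside 6.27%, 5.83%, 3.45% and 2.77% of all features), and the random-variance test also called 0. The test of the difference between lines in the response called 0 members in each of the 4 conditions, and 0% of all features. At an unadjusted p under 0.05 there were 54 (DBP), 56 (BP), 48 (DBN) and 44 (BN) members, or 8.21%, 8.51%, 7.29% and 6.69%, beside 8.66%, 6.99%, 9.09% and 7.80% of all features, and the random-variance test called 0. For JPX the difference between lines was 1.19 ± 0.26 in DBN (adjusted p = 0.139) and 1.07 ± 0.18 in BN (adjusted p = 0.297), and for FRG1HP it was 1.11 ± 0.25 in DBN (adjusted p = 0.139). For AURKAP1 it was 0.15 ± 0.17 in DBP (adjusted p = 0.767) and 0.36 ± 0.30 in DBN (adjusted p = 0.916), with both lines lower.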

How the data were processed

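RNA of 50 samples (10 groups of 5) was hybridised in 1 colour to Agilent whole human genome arrays. The deposited scanner files hold the processed intensity of each spot, background-subtracted by the scanner software. The authors also deposited a value table of log2 intensities, used here only as an alternative. It is the authors' own normalization of the same arrays. The lists of changed genes in the study's supplements were not used. Members, lists and tests were chosen with earlier results of these data known.

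Spots flagged as outliers were left out, spots of a probe averaged, and log2 intensities taken relative to the array median over probes that are not controls (57 member values were missing). Features flagged or not above background on over 25% of arrays were dropped, which left 20100, and features that changed by 1.3-fold in fewer than 20% of arrays, which left 12206. R 4.3.3 with limma 3.58.1 was used, and matplotlib 3.10.9 for the plots. Calls needed p under 0.005 between lines, or 0.006 after irradiation, and a false discovery rate under 10%. Irradiated groups were compared with CTL with the replicate number as a fixed block, differences between lines in the response with line and replicate as a block, and lines over the 5 conditions with line and replicate as a random block (consensus correlation 0.325). Deviations of same-numbered samples correlated by at least 0.206 in H1299shRAD9, and by as little as −0.208 in H1299 BP and −0.0866 in H1299 DBN, while same-numbered CTL samples of the 2 lines did not pair (mean −0.0131). The fits were tested on simulated data.

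Named members were the 10 largest changes each way in CTL among called members without overlap, the 5 largest over the conditions, the 3 largest after irradiation, a list of known noncoding RNAs and coding partners. A gene with several probes was named if any of them met the rule, that probe is given with the brightest beside it, and counts over lists of genes use the brightest. Members also named outside this rule are marked in the text. Alternatives were another scaling, normalization, background correction, filters, test, table, block and fit, and each replicate left out. Probe sequences and hg19 positions come from the array annotation, and current symbols from RefSeq (GRCh38.p14, names only). The number of arrays limits the precision.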

Additional observations from a re-analysis of the deposited data

Results flagged for a closer look

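Of the 205 groups of 5 samples that were checked among the named members, 7 held a sample far from the other 4. By chance about 1 group in 20 would. In H1299 DBN, AFMID read −1.93 in replicate 2, with the others between −1.05 and −0.84, and FOXN3-AS1 (LOC400236) read 1.21 in replicate 1, with the others between 2.49 and 2.79. In H1299 BP replicate 2, GUCY1B2 read 0.94 (others −0.73 to −0.41) and ZNF503-AS2 read −1.58 (others −0.93 to −0.75). JPX read 0.62 in H1299 CTL replicate 5 (others −0.37 to −0.09). EOLA1-DT (LOC100131434) read −1.56 at its brighter probe in H1299shRAD9 CTL replicate 5 (others −0.21 to 0.33). POLR1HASP (ZNRD1-AS1) read 1.65 in H1299shRAD9 DBN replicate 2 (others 0.91 to 1.11). The high reading of CYP2G1P in H1299 DBN replicate 2, given above, is not among the 7. H1299 DBN replicate 2 and H1299 BP replicate 2 are the 2 arrays on which the structural RNAs were lowest. Their part in these values was not tested.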

How the results depend on the processing

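The count of members called in CTL, 135, was 66 with slide as a random block and 70 with scan day as a random block (chosen after seeing the data). Neither block can take a slide or day effect out of that comparison. The count was 63 to 137 with each replicate left out. The median difference in CTL, 0.17, was 0.121 with 75th percentile scaling, 0.115 with quantile normalization and 0.0497 with normexp, where the medians of all features were 0.0516, 0.0245 and −0.0907. The 166 members called over the 5 conditions became 321 with no replicate block, and 116 to 184 with each replicate left out. In DBP of H1299shRAD9 the 6 calls became 13 at the 75th percentile, 11 with quantile normalization, 13 in the authors' value table, 13 with scan day as a block, 1 in a fit of all groups, 1 with no replicate block and 0 with slide as a block, and 0 to 26 with each replicate left out. In BP the 15 became 7 at the 75th percentile, 6 in the authors' value table and 0 with slide or scan day as a block, in a fit of all groups and with no replicate block, and 0 to 9 with each replicate left out. In DBN the 21 became 0 with slide as a block, 1 in a fit of all groups and 4 with no replicate block, and 1 to 28 with each replicate left out. The 0 calls in H1299 DBP became 1 with normexp, 2 in a fit of all groups and 1 with no replicate block. Those in H1299 BP became 1 with the filter on dim probes and those in H1299 DBN 5 in a fit of all groups. For the difference between lines in DBN, 0 to 8 members were called with each replicate left out. The replicate block on the CTL comparison of lines, whose samples share only a number, gave 91. In H1299 the replicate block changed no other count, and same-numbered samples were not all correlated there. Counts over all features under these alternatives are not given, so the shifts cannot be read as particular to the members. The cause of these shifts was not tested.

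Of 83 results for named members, 77 kept their direction in all alternatives run. In CTL 18 values reversed, none of them of a called member. With quantile normalization MIRLET7BHG became 0.0243 and with scan day as a block 0.0152. With normexp TUG1 became −0.0738, RMRP −0.0543, RPPH1 −0.0649 and MCM3AP-AS1 −0.0953, and in the authors' value table MCM3AP-AS1 became −0.033. With each replicate left out, MIRLET7BHG ran from −0.155 to 0.108, MCM3AP-AS1 from −0.252 to 0.306, RMRP from −0.0696 to 0.309, RPPH1 from −0.229 to 0.388 and the brighter FAM66A probe from −0.262 to 0.0649. Arrays give no read depth, and signal over background limits the dim members, as the missing detection of CASC2, GUCY1B2 and KDM7A-DT on some H1299shRAD9 arrays shows.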
